A study of Homo sapiens with 12 samples.

Results

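The insulin and IGF axis was followed through 10 of its genes in the NCI-H1299 line, which was established from a human non-small cell lung carcinoma. The genes were a list of names, chosen with earlier results of these data known. They were the receptors IGF1R, IGF2R and INSR, the receptor substrates IRS1 and IRS2, and the binding proteins IGFBP2, IGFBP3, IGFBP4, IGFBP5 and IGFBP6. All probe sets that the platform annotation gives one of these symbols alone were taken, which made 29 of the 54675 probe sets on the array and 10 of the 19775 genes represented. RNA was measured on 12 Affymetrix arrays in 4 groups of 3. Spheroid xenografts were tumours grown from NCI-H1299 cells that had formed floating spheroids in stem-cell medium, and parental xenografts were tumours grown from the same line kept in serum-containing medium. Spheroid culture was the stem-cell medium culture itself, taken from the cells in suspension and kept in flasks that hinder attachment, and parental culture was the line in serum-containing medium. All groups derive from 1 cell line, so differences between lines are not covered. The samples of a group are titled biological replicates, and the labels do not say whether the tumours grew in separate animals. The p-values therefore cover the scatter among these samples only, which may be partly technical.

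In this pathway, insulin and the insulin-like growth factors IGF1 and IGF2 bind receptor tyrosine kinases of the cell surface. The occupied receptors phosphorylate the docking proteins IRS1 and IRS2, which recruit phosphoinositide 3-kinase and so switch on AKT kinases, growth and glucose uptake. Soluble IGF binding proteins hold the ligands outside the cell, lengthening their life or keeping them from the receptor. IGF2R stands apart, since it has no kinase domain: it takes IGF2 into the cell for breakdown and carries enzymes tagged with mannose 6-phosphate to the lysosome. IGF1R is widely studied in lung cancer as a receptor for growth and survival signals. Levels below are deposited log2 values, in which 1 unit is a 2-fold difference, and they are compared between groups for the same probe set, never between genes.

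The upstream sequences of the receptors whose RNA passed the test in a comparison are shown because they lie next to an annotated start of each gene. Which start the measured transcripts used was not tested. Each is the 250 bases upstream of the annotated start in RefSeq (GRCh38.p14), at chr15:98648289-98648538 on the plus strand for IGF1R and at chr6:159968832-159969081 on the plus strand for IGF2R. Capitals mark GGGCGG or its reverse complement CCGCCC, the core of the GC box that Sp family factors bind, and overlapping matches were each counted.
IGF1R: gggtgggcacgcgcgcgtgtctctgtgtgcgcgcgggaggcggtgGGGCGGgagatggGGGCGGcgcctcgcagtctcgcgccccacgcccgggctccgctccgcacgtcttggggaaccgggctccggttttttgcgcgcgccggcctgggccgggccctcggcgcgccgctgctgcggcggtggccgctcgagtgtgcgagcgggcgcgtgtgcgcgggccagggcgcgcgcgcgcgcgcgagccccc
IGF2R: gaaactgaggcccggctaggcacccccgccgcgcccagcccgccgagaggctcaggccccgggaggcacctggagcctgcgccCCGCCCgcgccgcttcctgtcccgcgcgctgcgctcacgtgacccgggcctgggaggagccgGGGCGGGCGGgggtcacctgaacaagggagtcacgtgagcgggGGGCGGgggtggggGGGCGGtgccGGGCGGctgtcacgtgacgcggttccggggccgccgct
The IGF1R window held 2 matches and 81.2% G and C, and the IGF2R window held 6 matches and 79.2% G and C. Of 35116 windows of this length, 42.6% held at least 1 match, 24.34% held at least as many as IGF1R, and 2.22% held at least as many as IGF2R. The median of all windows was 58.0% G and C. These shares are over windows of any G and C content. All 10 genes were found, with 12 windows between them, of which 10 held a match. Among genes without a call, IRS2 held 5 matches and INSR and IRS1 held 4 each, more than IGF1R. The windows of the binding proteins held 0 to 2. These letters describe the sequence, and binding at them was not measured here.

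Among the arrays, parental culture held the narrowest and the widest spread of values. The interquartile range over probe sets was 2.82 log2 units on parental culture replicate 1 and 3.44 on parental culture replicate 2, and array medians lay between 5.85 and 6.03. The 18S ribosomal RNA control (5' probe set) stood at 6.96 and 10.50 on those replicates, while the remaining 10 arrays gave 12.21 to 13.34. The GAPDH control read 0.49 log2 units higher at its 3' than at its 5' end on replicate 1, and the remaining 11 arrays gave 0.019 to 0.13. Values without these 2 arrays stand beside many of the differences that involve parental culture. Of 10 genes listed to check the labelled line, 8 lay above the array median on every array, among them the keratins KRT7, KRT8 and KRT18 and vimentin (VIM, 13.55 to 14.70), while KRT19 and EPCAM lay below it on all 12.

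Few of the 10 genes passed the test in any comparison. A gene was called at a limma adjusted p under 0.05 over all 19775 genes. In spheroid against parental culture 1 of the 10 was called higher, IGF1R, where 0.885% of all genes were called higher and 2.46% in either direction. In parental xenografts against parental culture 1 of the 10 was called higher, IGF2R, where 2.00% of all genes were called higher and 3.47% in either direction. None of the 10 was called in spheroid against parental xenografts, in spheroid xenografts against spheroid culture, or in the interaction, where 0.233%, 0.0202% and 0.137% of all genes were called. The interaction is the difference of spheroid and parental xenografts minus the difference of spheroid and parental culture. The median difference of the 10 genes was 0.056 in spheroid against parental culture and 0.044 in spheroid against parental xenografts, beside 0.070 and 0.019 over all genes. It was -0.31 in parental xenografts against parental culture and -0.13 in spheroid xenografts against spheroid culture, beside -0.0091 and -0.047 over all genes. Comparisons that use the same group share its 3 arrays and are not independent of each other.

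**Figure D1:**
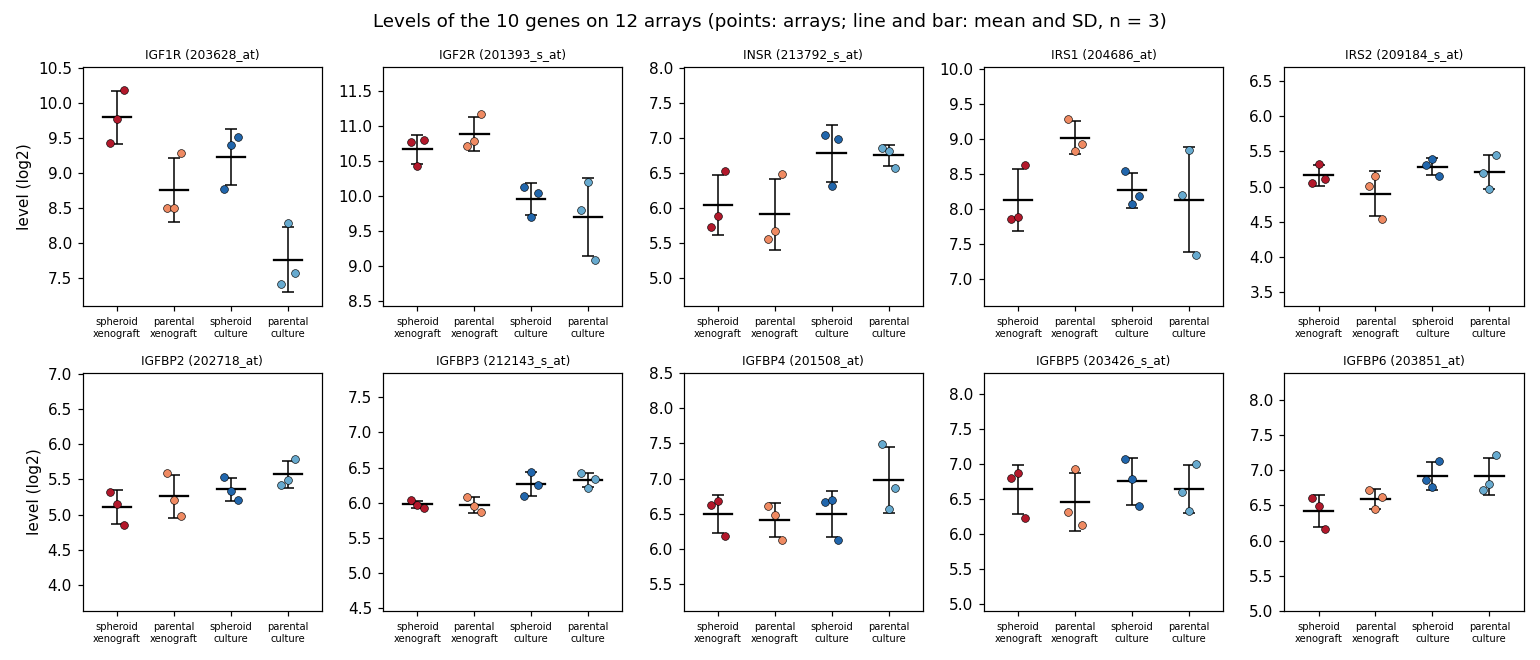
Deposited log2 level (vertical axis, the same span of log2 units in every panel) of each of the 10 genes in the 4 groups (horizontal axis). Points are the 12 arrays, and lines and bars are the mean and SD (n = 3). IGF1R is lowest in parental culture, IGF2R is higher in both xenograft groups than in both cultures, and no IGFBP gene was called.

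IGF1R, the receptor tyrosine kinase for IGF1 and IGF2, was 2.77-fold higher in spheroid than in parental culture. Its probe set with the highest mean, 203628_at, read 8.78, 9.39 and 9.52 on the spheroid culture arrays, against 7.43, 8.29 and 7.57 on the parental culture arrays. The 2 groups did not overlap, and the lowest spheroid culture array lay above the highest parental culture array. The difference was 1.47 (SE 0.30, 95% interval 0.81 to 2.13, limma adjusted p = 0.0278). It rested near the threshold: the call was lost in 10 of 25 alternatives, where the adjusted p ran from 5.19e-04 to 0.140 and the difference from 1.00 to 1.73. Without parental culture replicates 1 and 2 together the difference was 1.66 (adjusted p = 0.0740), with the lone remaining array assumed to vary like the other groups.

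In the tumours IGF1R was again higher in the spheroid group, without passing the test. The level was 9.43, 9.77 and 10.18 in spheroid xenografts, against 8.50, 8.50 and 9.29 in parental xenografts. Every spheroid xenograft array lay above every parental xenograft array. The difference was 1.03 (SE 0.30, 95% interval 0.37 to 1.69, limma adjusted p = 0.276). With the replicate number as a block and only these 6 arrays the adjusted p was 0.0200, and with the block over all 12 arrays it was 0.145. The same 6 arrays without the block gave 0.138. Of all 19775 genes 491 were called with the block and these 6 arrays, beside 46 in the fit over all 12 arrays. Tumour against culture gave 1.00 in parental cells (95% interval 0.34 to 1.66, limma adjusted p = 0.107), with no overlap of the groups (1.19, adjusted p = 0.148, without parental culture replicates 1 and 2 together), and 0.56 in spheroid cells (95% interval -0.10 to 1.22, limma adjusted p = 0.777), with overlap. The interaction was -0.44 (95% interval -1.38 to 0.50, limma adjusted p = 1.00), or -0.63 (adjusted p = 0.789) without parental culture replicates 1 and 2 together, so the spheroid against parental difference was not shown to change between culture and tumour.

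Ordered by group mean, IGF1R was 9.79 ± 0.38 for spheroid xenografts, then 9.23 ± 0.40 for spheroid culture, 8.76 ± 0.45 for parental xenografts and 7.76 ± 0.46 for parental culture (SD, n = 3 each). Neighbours in that order overlapped except for the lowest pair, parental xenografts and parental culture. Tumours are mixed tissue, and in such samples fewer cells of a type and less RNA per cell cannot be told apart.

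The 5 IGF1R probe sets did not all show this. In spheroid against parental culture all 5 differences were positive, from 0.035 to 1.65, and 1 of the 5 was called, where 1.23% of all probe sets were called. Between spheroid and parental xenografts 4 of 5 were positive and none was called, where 0.0897% of probe sets were called. Over the 12 arrays, 225330_at followed 203628_at with Pearson r = 0.988, 203627_at with r = 0.912 and 243358_at with r = 0.823. The probe set 208441_at did not (r = -0.393), and it lay below the array median on all 12 arrays. These correlations are descriptions over 12 arrays that share the group differences and the array spread. Averaging all 5 probe sets gave a difference of 1.00 in culture (limma adjusted p = 0.0529).

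**Figure D2:**
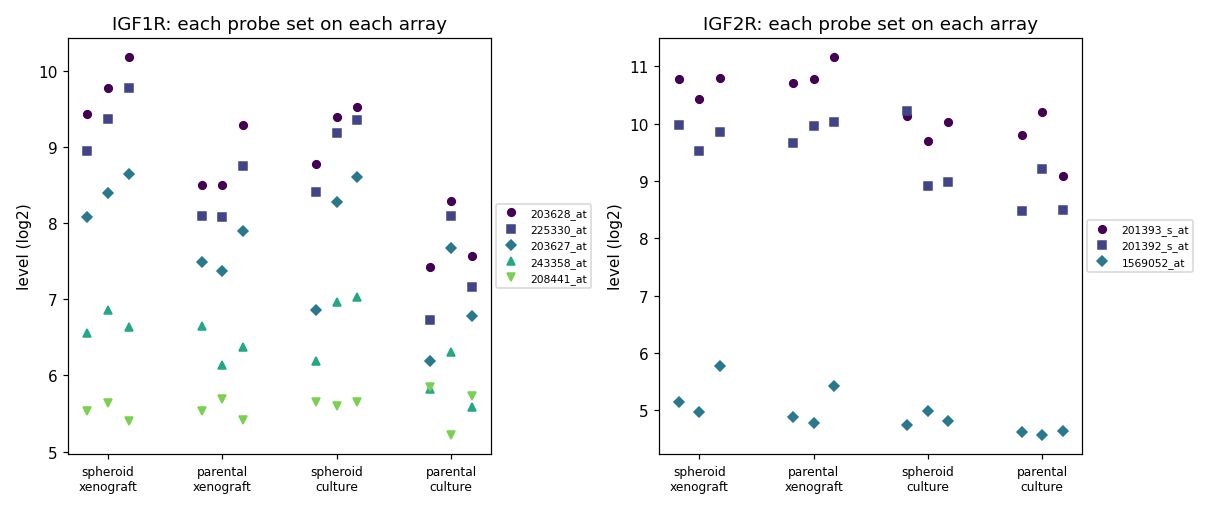
Deposited log2 level (vertical axis) of every probe set of IGF1R and IGF2R on each of the 12 arrays in the 4 groups (horizontal axis), with 1 marker shape and colour per probe set. The IGF1R probe sets 203628_at and 225330_at are lowest in parental culture, while 208441_at lies below the array median throughout.

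IGF2R, the clearance and sorting receptor, had higher group means in both kinds of xenograft than in both cultures, and passed the test in parental cells. It was 2.28-fold higher in parental xenografts than in parental culture. The probe set with the highest mean, 201393_s_at, read 10.71, 10.78 and 11.16 on the parental xenograft arrays, against 9.80, 10.20 and 9.09 on the parental culture arrays. The groups did not overlap, and parental culture replicate 3 was the lowest of the 12 arrays. The difference was 1.19 (SE 0.25, 95% interval 0.64 to 1.74, limma adjusted p = 0.0262). The call was lost in 8 of 25 alternatives, with adjusted p from 4.53e-04 to 0.469. The value was 0.42 (adjusted p = 0.469) where probe sets ending in _s_at or _x_at were left out, since only 1569052_at then stands for the gene, and it was 1.79 (adjusted p = 0.00745) without parental culture replicates 1 and 2 together.

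In spheroid cells the IGF2R level was 10.77, 10.43 and 10.79 in xenografts, against 10.13, 9.70 and 10.04 in culture. The groups did not overlap. The difference was 0.71 (SE 0.25, 95% interval 0.16 to 1.26) and did not pass the test over all arrays (limma adjusted p = 0.490). With the replicate number as a block and only these 6 arrays its adjusted p was 0.0233. Of all 19775 genes 591 were called in that setting, beside 4 in the fit over all 12 arrays. The same 6 arrays without the block gave an adjusted p of 0.129, and the block over all 12 arrays gave 0.560. Spheroid against parental gave 0.26 in culture (95% interval -0.29 to 0.81, limma adjusted p = 0.743) and -0.22 in xenografts (95% interval -0.77 to 0.33, limma adjusted p = 1.00), with overlapping groups in both. The culture difference without parental culture replicates 1 and 2 together was 0.86 (adjusted p = 0.142). The interaction was -0.48 (95% interval -1.26 to 0.30, limma adjusted p = 0.978), and it was -1.08 (adjusted p = 0.211) without both of those arrays and -0.18 (adjusted p = 0.917) without parental culture replicate 3. All 3 IGF2R probe sets were positive and without overlap in parental xenografts against parental culture, from 0.42 to 1.19, and 1 of the 3 was called, where 2.34% of all probe sets were called. The lowest, 0.42, came from 1569052_at, which lay below the array median on all 12 arrays and below the lower quartile on 4. All 3 were also positive in spheroid xenografts against spheroid culture, from 0.42 to 0.71, where 0.253% of all probe sets were called and none of these.

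Parental xenografts also differed from parental culture in some genes listed as fibroblast markers. The summed linear signal of 10 fibroblast markers was 989 to 1021 in spheroid xenografts and 974 to 1429 in parental xenografts, against 891 to 1003 in spheroid culture and 684 to 953 in parental culture. Of these markers COL3A1 and FAP were called higher in parental xenografts than in parental culture, where 2.00% of all genes were called higher. None was called in spheroid xenografts against spheroid culture, and LUM, PDGFRA and DPT lay below the array median on all 12 arrays. Which cells the COL3A1 and FAP RNA came from was not tested. Of the 10 genes listed for the line, 2 were called in parental xenografts against parental culture, where 1.48% of all genes were called lower. These were KRT8 (-1.77, limma adjusted p = 0.00278) and KRT18 (-1.71, limma adjusted p = 0.0191). The sum of the 10 line genes was 28240 to 30590 in parental xenografts, against 16870 to 32070 in parental culture. Their mean log2 level was 7.82 to 8.02 in parental xenografts, against 8.09 to 8.32 in parental culture. No marker of the line was called in spheroid xenografts against spheroid culture. The sum of 10 endothelial markers was 542 to 646 in spheroid xenografts and 493 to 664 in parental xenografts, against 573 to 701 in spheroid culture and 464 to 679 in parental culture. The sum of 9 myeloid markers was 434 to 555 in spheroid xenografts and 426 to 619 in parental xenografts, against 502 to 629 in spheroid culture and 358 to 568 in parental culture. No endothelial, myeloid, adipocyte or muscle marker was called in either xenograft comparison. The part of host or stromal RNA in the IGF2R and IGF1R values was not tested.

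INSR, the insulin receptor, had lower means in both xenograft groups than in both cultures, and no difference passed the test. The probe set 213792_s_at read 5.73, 5.88 and 6.53 in spheroid xenografts and 5.56, 5.67 and 6.49 in parental xenografts, against 7.04, 6.31 and 6.98 in spheroid culture and 6.86, 6.81 and 6.57 in parental culture. Parental xenografts and parental culture did not overlap, while spheroid xenografts and spheroid culture did. The difference was -0.84 in parental cells (95% interval -1.46 to -0.22, limma adjusted p = 0.157) and -0.73 in spheroid cells (95% interval -1.36 to -0.11, limma adjusted p = 0.571). The difference in parental cells without parental culture replicates 1 and 2 together was -0.67 (adjusted p = 0.439). All 5 INSR probe sets were negative in both of these comparisons, from -0.84 to -0.060 in parental cells and from -0.73 to -0.14 in spheroid cells, and none was called. Of these, 226212_s_at lay below the array median on all 12 arrays and 207851_s_at on 11. The other probe sets followed 213792_s_at loosely over the 12 arrays, with r from -0.199 to 0.627.

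IRS1, the docking protein downstream of both receptor kinases, was highest in parental xenografts. Its probe set 204686_at read 7.86, 7.89 and 8.63 in spheroid xenografts, against 9.28, 8.83 and 8.93 in parental xenografts. The groups did not overlap, and the difference was -0.89 (95% interval -1.61 to -0.17, limma adjusted p = 0.464). The level was 8.55, 8.07 and 8.19 in spheroid culture, against 8.21, 8.85 and 7.35 in parental culture. Parental culture spanned the widest range of the 4 groups and overlapped spheroid culture.

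For IRS1, parental xenografts minus parental culture was 0.88 (95% interval 0.16 to 1.60, limma adjusted p = 0.216). It was 1.24 (limma adjusted p = 0.0246) without parental culture replicate 2 and 1.66 (limma adjusted p = 0.0241) without replicates 1 and 2 together, but 0.49 (limma adjusted p = 0.578) without replicate 3. The interaction was -1.02 (95% interval -2.04 to 0.0005, limma adjusted p = 0.674). It was -1.80 (adjusted p = 0.101) without replicates 1 and 2 together and -0.63 (adjusted p = 0.781) without replicate 3. All 3 IRS1 probe sets were negative in it, from -1.37 to -0.21. None of the 3 was called, where 0.0732% of all probe sets were called. IRS2, the second substrate, was read by 2 probe sets that lay below the array median on all 12 arrays, and its level on 209184_s_at ran from 4.54 to 5.45.

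**Figure D3:**
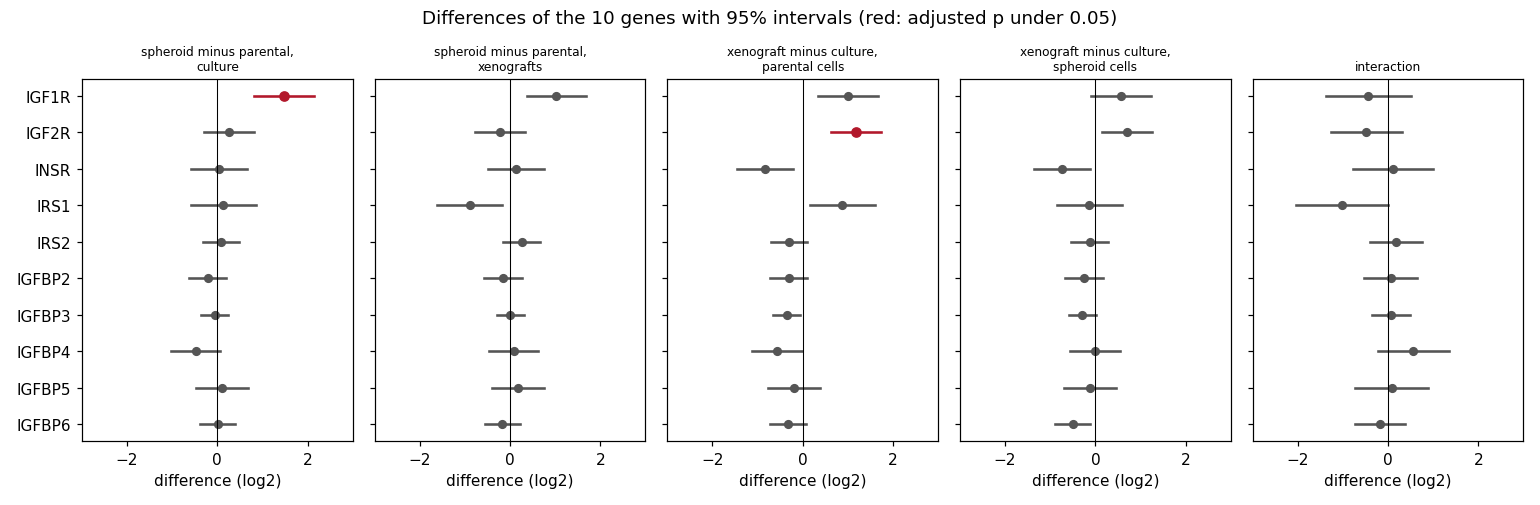
Log2 difference (horizontal axis) of each of the 10 genes (rows) in the 4 group comparisons and the interaction, as points with 95% intervals from the limma fit over 12 arrays, where values right of 0 are higher in the group named first. Red marks the called genes, IGF1R in spheroid against parental culture (0.81 to 2.13) and IGF2R in parental xenografts against parental culture (0.64 to 1.74).

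None of the 5 IGF binding proteins was called in any comparison. IGFBP3, the main carrier of IGFs in blood, read 6.04, 5.96 and 5.93 in spheroid xenografts and 6.08, 5.96 and 5.86 in parental xenografts, against 6.09, 6.44 and 6.25 in spheroid culture and 6.42, 6.21 and 6.34 in parental culture. Each xenograft group lay below its culture without overlap, by 0.35 in parental cells (95% interval of the difference -0.65 to -0.059, limma adjusted p = 0.227) and by 0.29 in spheroid cells (95% interval -0.58 to 0.0095, limma adjusted p = 0.700). Its second probe set, 210095_s_at, gave 0.021 for spheroid xenografts minus spheroid culture.

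IGFBP6, which prefers IGF2 over IGF1, read 6.61, 6.49 and 6.16 in spheroid xenografts, against 6.87, 6.76 and 7.14 in spheroid culture. It read 6.716, 6.443 and 6.614 in parental xenografts, against 6.722, 6.809 and 7.217 in parental culture. Neither pair overlapped, though in parental cells the nearest arrays of the groups were only thousandths of a unit apart. The difference was -0.50 in spheroid cells (95% interval -0.89 to -0.11, limma adjusted p = 0.494) and -0.33 in parental cells (95% interval -0.72 to 0.066, limma adjusted p = 0.486). Without parental culture replicates 1 and 2 together, parental xenografts minus parental culture was -0.63 for IGFBP6 (adjusted p = 0.187) and -0.37 for IGFBP3 (adjusted p = 0.341).

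IGFBP4, the binding protein cut by the protease PAPPA, was highest on parental culture replicate 1. It read 6.67, 6.70 and 6.12 in spheroid culture, against 7.49, 6.57 and 6.87 in parental culture. It read 6.62, 6.67 and 6.18 in spheroid xenografts and 6.61, 6.48 and 6.13 in parental xenografts. All of these groups overlapped their neighbours. The difference was -0.48 in spheroid against parental culture (limma adjusted p = 0.448) and -0.57 in parental xenografts against parental culture (limma adjusted p = 0.325). Without parental culture replicates 1 and 2 together they were -0.37 (adjusted p = 0.740) and -0.46 (adjusted p = 0.436), and without replicate 1 alone they were -0.22 (adjusted p = 0.691) and -0.31 (adjusted p = 0.670).

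IGFBP2 lay below the array median on all 12 arrays, between 4.84 and 5.79. IGFBP5, read by 6 probe sets, ran from 6.13 to 7.06 on 203426_s_at, and 2 of its 6 probe sets lay below the lower quartile of every array. Over IRS2 and the 5 binding proteins, the 95% intervals covered -1.03 to 0.68 in spheroid against parental culture and -0.57 to 0.76 in spheroid against parental xenografts. They covered -1.12 to 0.39 in parental xenografts against parental culture and -0.89 to 0.54 in spheroid xenografts against spheroid culture.

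Counted by groups that do not overlap, in spheroid against parental culture 1 of the 10 genes lay higher and 0 lower, beside 7.21% and 6.56% of all genes. Between the xenograft groups IGF1R lay higher and IRS1 lower in the spheroid one, beside 9.30% and 7.21% of all genes. In parental xenografts against parental culture 2 lay higher, IGF1R and IGF2R, and 3 lay lower, INSR, IGFBP3 and IGFBP6, beside 7.37% and 6.28% of all genes. In spheroid xenografts against spheroid culture 1 lay higher, IGF2R, and 2 lay lower, IGFBP3 and IGFBP6, beside 8.85% and 9.85% of all genes.

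The spread of values on an array moved with several of the genes inside their groups. Over the 12 arrays, deviations from the group mean correlated with the array's interquartile range at r = 0.886 for IGF1R, 0.688 for IGF2R, 0.595 for IRS1 and 0.502 for INSR. They correlated at r = -0.841 for IGFBP4, -0.732 for IRS2, -0.723 for IGFBP5, -0.545 for IGFBP2, -0.509 for IGFBP3 and -0.199 for IGFBP6. The same correlation was not computed over all genes, so it was not shown to be particular to these. With the interquartile range as a covariate, the IGF1R difference in spheroid against parental culture was 1.63 (limma adjusted p = 5.19e-04) and the IGF2R difference in parental xenografts against parental culture was 1.14 (limma adjusted p = 0.00408). IGF1R was then also called in spheroid against parental xenografts (1.07, limma adjusted p = 0.0144) and in parental xenografts against parental culture (0.92, limma adjusted p = 0.00522). IGFBP4 in culture (-0.60, limma adjusted p = 0.0364) and INSR in parental cells (-0.88, limma adjusted p = 0.0493) were called with it as well. Calls over all 19775 genes also rose with this covariate. They went from 487 to 1750 in spheroid against parental culture and from 46 to 290 in spheroid against parental xenografts. In parental xenografts against parental culture they went from 687 to 1901. The cause of this spread was not tested.

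**Figure D4:**
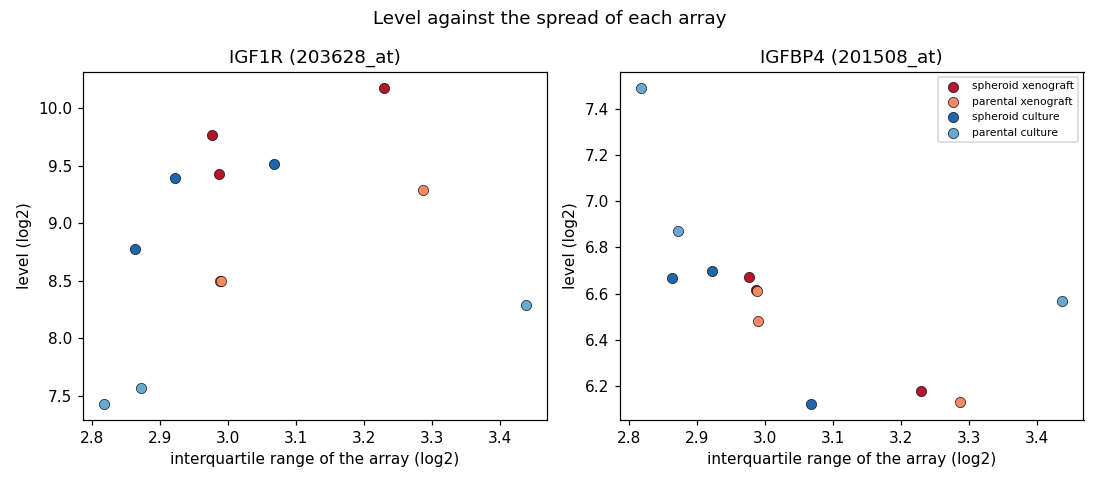
Deposited log2 level (vertical axis) of IGF1R and IGFBP4 against the interquartile range of all probe sets on the array in log2 units (horizontal axis), 1 point per array in the colour of its group. Within a group IGF1R tends to sit higher and IGFBP4 lower on arrays with a wider range, and parental culture holds both ends of the range, 2.82 and 3.44.

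The ligands themselves gave little. Insulin (INS) lay between 4.75 and 5.70, below the array median on all 12 arrays, and IGF1 between 5.90 and 6.75. Neither was called in any comparison, and the IGF1 differences between groups ran from -0.16 to 0.15. IGF2 was read only through probe sets with several symbols and was not analysed here.

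Beyond the 10 genes, 49 of 54 other listed genes of the pathway were represented. In spheroid against parental culture 1 of them was called higher and 2 lower, beside 0.885% and 1.58% of all genes. In spheroid against parental xenografts 0 were called higher and 1 lower, beside 0.0506% and 0.182%. In parental xenografts against parental culture 3 were called higher and 3 lower, beside 2.00% and 1.48%. None was called in spheroid xenografts against spheroid culture or in the interaction. SOCS2, a suppressor that damps growth hormone and IGF1R signalling, was called higher in spheroid culture and in parental xenografts. It read 10.52, 10.49 and 10.43 in spheroid culture, against 9.09, 9.00 and 8.31 in parental culture, a difference of 1.68 (SE 0.25, limma adjusted p = 0.00652). In parental xenografts it read 9.93, 10.32 and 10.88, which was 1.58 above parental culture (limma adjusted p = 0.00589). The groups did not overlap in either comparison. Both calls held without parental culture replicates 1 and 2 together, with differences of 2.17 (adjusted p = 0.0114) and 2.06 (adjusted p = 0.00873).

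AKT2, a kinase that acts downstream of the substrates and drives glucose uptake, ran the other way. It read 8.30, 7.73 and 8.14 in spheroid culture and 8.24, 8.27 and 8.63 in parental xenografts, against 9.85, 10.02 and 9.42 in parental culture. Parental culture lay above both other groups without overlap. The difference was -1.71 for spheroid culture (SE 0.20, limma adjusted p = 0.00266) and -1.38 for parental xenografts (limma adjusted p = 0.00346), and both use the same 3 parental culture arrays. Averaged over all AKT2 probe sets, the differences were -0.83 and -0.67, called in both cases (limma adjusted p = 0.00641 and 0.0127). Without parental culture replicates 1 and 2 together the difference was -1.36 for spheroid culture (adjusted p = 0.0303) and -1.04 for parental xenografts (adjusted p = 0.0556).

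The catalytic subunit gene PIK3CD and the regulatory subunit gene PIK3R3 of phosphoinositide 3-kinase were called higher in parental xenografts than in parental culture. PIK3CD differed by 0.91 (SE 0.20, limma adjusted p = 0.0292) and PIK3R3 by 0.70 (SE 0.16, limma adjusted p = 0.0370), and these calls were lost in 8 and 15 of 25 alternatives. PCK2, the mitochondrial enzyme that makes phosphoenolpyruvate, was lower in parental xenografts than in parental culture by 1.63 (SE 0.32, limma adjusted p = 0.0193). STC2, which blocks the PAPPA protease, was -0.87 in spheroid against parental culture (SE 0.17, limma adjusted p = 0.0217) and -1.68 in parental xenografts against parental culture (limma adjusted p = 8.50e-04). Without parental culture replicates 1 and 2 together these STC2 differences were -0.78 (adjusted p = 0.142) and -1.58 (adjusted p = 0.00788), and in parental cells PCK2 was -1.60 (adjusted p = 0.00705), PIK3CD 1.18 (adjusted p = 0.0468) and PIK3R3 0.82 (adjusted p = 0.0557). Over all alternatives the STC2 call in culture was lost in 9 of 24 and the PCK2 call in 5 of 25. STC1, the relative of STC2, was -3.43 in spheroid against parental xenografts (SE 0.48, limma adjusted p = 0.0207), with 7.51, 7.24 and 7.90 in spheroid xenografts, against 10.02, 12.16 and 10.76 in parental xenografts. The STC1 call was lost without spheroid xenograft replicate 1 (adjusted p = 0.0782) or replicate 2 (adjusted p = 0.150).

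**Figure D5:**
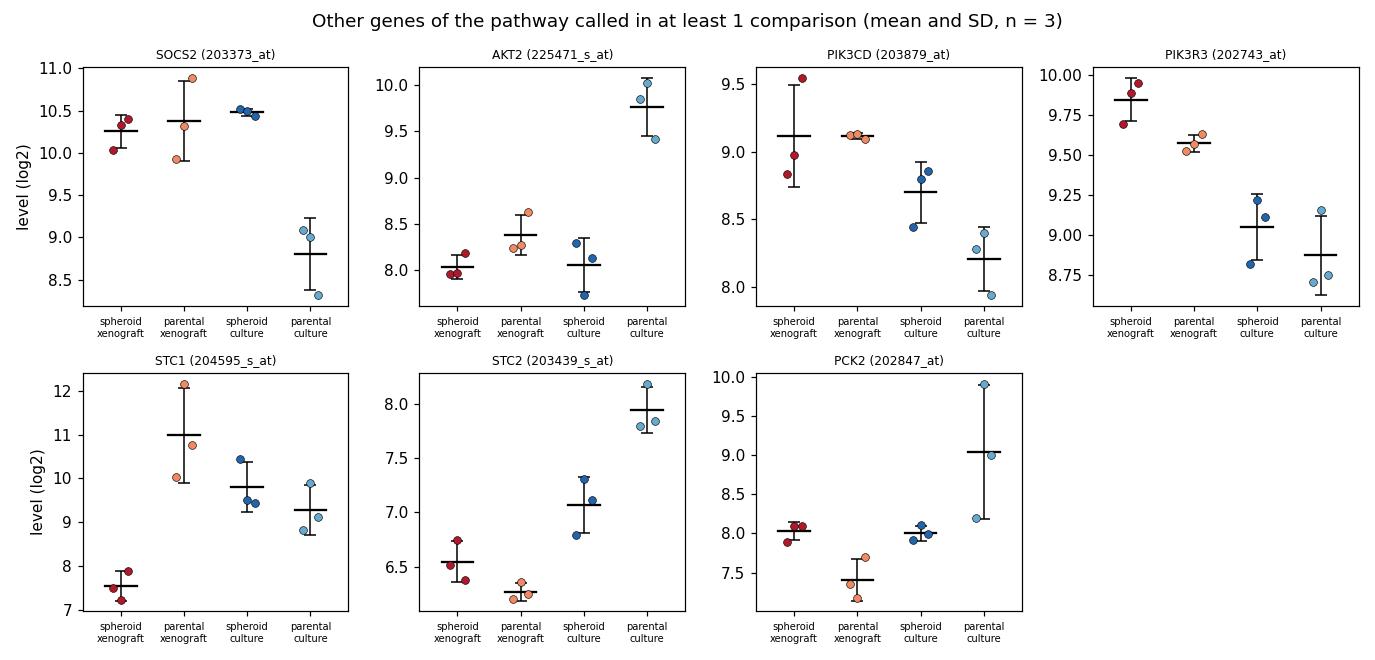
Deposited log2 level (vertical axis, own scale in each panel) of the 7 other pathway genes called in a comparison, in the 4 groups (horizontal axis), with arrays as points and lines and bars for the mean and SD (n = 3). SOCS2 is lowest and AKT2 highest in parental culture, and STC1 is lowest in spheroid xenografts.

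The genes whose level followed IGF1R most closely over the 12 arrays, among 2361 genes with an SD of at least 0.5, were TBC1D23 (Pearson r = 0.978, Spearman rho 0.986), ATG12 (r = 0.970) and CHN1 (r = 0.958). For IGF2R they were ESYT2 (r = 0.943), DENND5B (r = 0.942) and BMPR2 (r = 0.936). Inside the groups the correlations were 0.907, 0.926 and 0.851 for the IGF1R set and 0.755, 0.799 and 0.795 for the IGF2R set. The arrays share the group differences and the spread described above, so these values only describe the 12 arrays.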

How the data were processed

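RNA of the 12 samples was measured on Affymetrix arrays. The authors deposited log2 values for each probe set on each array, and the submitters' processing notes name RMA and affy. Their versions, and whether the arrays were normalised in 1 run, are not stated. By the platform annotation 41091 probe sets outside the 62 controls had 1 symbol. With controls included, 1801 had several symbols and 11777 had none. Symbols were updated by gene number for 41043 of all probe sets with 1 symbol. Each gene was represented by its single-symbol probe set with the highest mean.

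Differences were computed in R 4.3.3 with limma 3.58.1 (lmFit and eBayes, 1 mean per group, 8 residual degrees of freedom) and adjusted by the Benjamini-Hochberg method over all genes, or over all 54613 non-control probe sets, two-sided, with calls at 0.05. The method was tested on simulated data. Precision is limited by how few arrays there are, with a median SE of 0.201 for a difference and 0.285 for the interaction. Alone, an exact permutation test of 3 against 3 arrays cannot go below 0.1. Every named gene of the list is reported, with called genes of the other pathway lists and the 3 most alike genes of each called member. Members and lists were chosen with earlier results of these data known.

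Same-numbered arrays deviated together in spheroid against parental xenografts (r = 0.182, 0.213 and 0.483) and in spheroid xenografts against spheroid culture (r = 0.341, 0.333 and 0.431), but not every pair did so in spheroid against parental culture (r = 0.333, -0.236 and -0.298) or in parental xenografts against parental culture (r = 0.192, -0.454 and -0.434). Alternatives were other normalisations, probe set rules, array weights, a replicate block, left-out arrays and, chosen after seeing the data, array spread as a covariate, leaving out 2 parental culture arrays, and the block within the groups compared.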

Additional observations from a re-analysis of the deposited data

Results flagged for a closer look

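For 4 other pathway genes a difference ran in opposite directions in 2 settings, without overlap of the arrays in either. The search covered only the 10 axis genes, INS, IGF1 and the other pathway genes already called in a comparison. How many of all genes show such opposed differences was not counted, so the 4 genes cannot be set against a share. Tumour against culture ran lower in spheroid cells and higher in parental cells for STC1, with an interaction of -3.95 (limma adjusted p = 0.0517), and for SOCS2, with an interaction of -1.80 (limma adjusted p = 0.0794). Spheroid against parental ran higher in xenografts and lower in culture for STC2, with an interaction of 1.15 (limma adjusted p = 0.104), and for PCK2, with an interaction of 1.66 (limma adjusted p = 0.267). None of these interactions passed the test over all genes with all 12 arrays. Without parental culture replicates 1 and 2 together they were -4.12 for STC1 (adjusted p = 0.0710), -2.29 for SOCS2 (adjusted p = 0.0349), 1.06 for STC2 (adjusted p = 0.165) and 1.63 for PCK2 (adjusted p = 0.0364), so SOCS2 and PCK2 were then called. With 1 array left out, SOCS2 was also called without parental culture replicate 1 (-1.95, adjusted p = 0.0452) or 2 (adjusted p = 0.0396), PCK2 without parental culture replicate 1 (2.08, adjusted p = 0.0237), and STC1 without parental culture replicate 2 (-4.26, adjusted p = 0.0205) or parental xenograft replicate 1 (adjusted p = 0.0371). None of the 10 insulin and IGF axis genes showed such opposed differences.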

How the results depend on the processing

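The count of called axis genes in spheroid against parental culture was 1. It was 0 with the mean of all probe sets, median centring, only the groups compared, the replicate block with only the groups compared, and without parental culture replicates 1 and 2 together, 2 with array spread as a covariate, and 0 to 1 with 1 array left out. In parental xenografts against parental culture the count was 1. It was 0 without probe sets ending in _s_at or _x_at, with median centring, only the groups compared and the replicate block with only the groups compared, 2 with repeated quantile normalisation, cyclic loess and without parental culture replicates 1 and 2 together, 3 with array spread as a covariate, 5 with array weights, and 0 to 3 with 1 array left out. In spheroid against parental xenografts the count of 0 became 2 with array weights and 1 with array spread as a covariate or the replicate block with only the groups compared. In spheroid xenografts against spheroid culture it became 1 with array weights or that block, and in the interaction 1 with array weights. The replicate block over all 12 arrays changed no call of an axis gene (IGF1R in culture, adjusted p = 0.0161, and IGF2R in parental cells, adjusted p = 0.0476). IGF2R changed sign without probe sets ending in _s_at or _x_at in xenografts (0.26) and in the interaction (0.028), and in culture it ran from -0.041 to 0.51 with 1 array left out. The causes were not tested. A chosen part of the axis gene differences was followed through the alternatives. Of these values 562 kept their side and direction, 19 gained the call, 18 lost it and 3 changed sign. Most that kept their side were differences without a call to lose. All lost calls came from the 2 called differences, IGF1R in culture (10 of 25 alternatives) and IGF2R in parental cells (8 of 25). Over all genes the calls ran from 15 to 2095 in spheroid against parental culture, 4 to 1206 in spheroid against parental xenografts, 68 to 2343 in parental xenografts against parental culture, 1 to 915 in spheroid xenografts against spheroid culture and 2 to 896 in the interaction, highest with array weights each time. Some alternatives leave no probe set for IRS2 or IGFBP3, and the interaction needs all 4 groups. The alternative kept to genes above the median of gene means leaves out INSR, IRS2 and every listed IGF binding protein. Their mean levels were thus not above that median. Signal below the array median limits IRS2, IGFBP2, most of IGFBP5, and 1 probe set of IGF1R, 1 of IGF2R and 2 of INSR. The INSR probe set 213792_s_at also lay below it on 4 arrays and the IGFBP3 probe set 212143_s_at on 3.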
